A study of Homo sapiens with 6 samples.

Results

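The constitutive proteasome subunits are the protein-coding genes of GENCODE release 29 whose symbols run PSMA, PSMB, PSMC or PSMD and a number, without PSMB5 to PSMB10, which encode the catalytic beta subunits of the standard and the immune proteasome. The rule gave 33 genes of the 34913 genes with transcripts in the files, and 31 of the 33 passed the filter on low counts, among 14577 tested genes. They comprise 7 subunits of the alpha ring, 4 non-catalytic beta subunits, 6 ATPases, 3 scaffold and receptor subunits of the base, 8 subunits of the lid, 3 assembly chaperones of the base and 2 tissue-restricted core subunits. Of the tested members, 7 (22.6%) differed between the sources of the cells, beside 49.8% of all tested genes. None of the 31 differed by as much as 2-fold, which 21.8% of all tested genes did.

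THP-1 cells are a suspension line of human monocytes that was established from acute monocytic leukaemia. Polyadenylated RNA was sequenced from untreated THP-1 cells obtained from the German collection DSMZ (3 libraries) and from the American Type Culture Collection, ATCC (3 libraries). Cells of both banks were kept side by side in RPMI medium with 20% fetal bovine serum at 37 °C and 5% CO2, were grown for 48 h, split, and collected in logarithmic growth after a further 24 h. The replicate expansions of each bank were made independently per the labels, so p-values rest on the spread between expansions, and an effect of the bank and of the cells received from it cannot be told apart.

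The proteasome is the protease that degrades most short-lived and misfolded proteins of the cytosol and nucleus after they have been tagged with ubiquitin. Its barrel-shaped 20S core has outer rings of alpha subunits, which gate the channel, and inner rings of beta subunits, some of which cut peptide bonds. The 19S regulatory particle caps the core: its base holds a ring of ATPases that unfold substrates and open the gate, and its lid removes ubiquitin. Subunits are made from separate genes scattered over the genome, and assembly chaperones bring the ATPases together before they are released. In monocytes and macrophages the proteasome also supplies peptides for antigen presentation and removes the inhibitor of NF-kB.

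The libraries held 23413428 to 37119721 estimated counts. ATCC replicate 2 stood apart: the chi-square per degree of freedom between it and ATCC replicates 1 and 3 was 103 and 61.2, against 12.7 between ATCC replicates 1 and 3. All 12 monocytic marker genes on the list used reached at least 1 TPM in every library. Their TPM summed to 3500 to 3640 in DSMZ libraries and 4210 to 4740 in ATCC libraries. CTSG held the largest part, 1880 to 2220 TPM in DSMZ and 2590 to 2980 TPM in ATCC libraries. CD33, ITGB2, SPI1, CEBPA and FCGR1A were also lower in each DSMZ library. CD4 and CSF1R were higher in each DSMZ library, and LYZ, ITGAM, CD68 and PTPRC overlapped. Marker genes of other cells were low: B cell genes summed to 4.15 to 4.98 TPM in DSMZ libraries and 2.38 to 2.79 TPM in ATCC libraries, epithelial genes to 4.02 to 7.30 TPM in DSMZ and 3.42 to 4.70 TPM in ATCC libraries, fibroblast genes to 2.07 to 3.47 TPM in DSMZ and 1.58 to 2.92 TPM in ATCC libraries, and T cell and erythroid genes to at most 0.715 TPM, with CD3E and MS4A1 listed at 0 throughout. TPM is a length-scaled abundance, used here for levels between genes. Fold changes are log2 values, DSMZ minus ATCC, from library-scaled counts.

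Promoter windows of 300 bases (250 before and 50 after the annotated start) were taken from RefSeq on GRCh38.p14 and were found for 30 of the 33 members, without PSMA7, PSMB1 and PSMD4. They were searched on both strands for 3 short motifs: TGACNNNGC, the core of the antioxidant response element through which NFE2L1 and NFE2L2 act on proteasome genes, CCAAT, the CCAAT box, and CCGGAAG, a core bound by ETS family factors. The windows given are those of the 3 members on chromosome 11, which were lower in DSMZ cells, of PSMC1, which was lower while the genes around it had a median log2 fold change of 0.02, and of PSMC4, which was higher and held the only TGACNNNGC match among the members that differed. Capitals mark the match, on whichever strand it lay.
PSMA1 promoter, chr11:14520337-14520636, minus strand: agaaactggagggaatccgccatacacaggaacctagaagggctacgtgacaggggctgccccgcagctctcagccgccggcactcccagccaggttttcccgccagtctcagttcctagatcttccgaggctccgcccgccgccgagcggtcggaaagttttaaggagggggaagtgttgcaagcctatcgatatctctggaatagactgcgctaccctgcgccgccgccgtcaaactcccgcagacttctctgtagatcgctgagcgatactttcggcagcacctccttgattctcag
PSMC3 promoter, chr11:47426390-47426689, minus strand: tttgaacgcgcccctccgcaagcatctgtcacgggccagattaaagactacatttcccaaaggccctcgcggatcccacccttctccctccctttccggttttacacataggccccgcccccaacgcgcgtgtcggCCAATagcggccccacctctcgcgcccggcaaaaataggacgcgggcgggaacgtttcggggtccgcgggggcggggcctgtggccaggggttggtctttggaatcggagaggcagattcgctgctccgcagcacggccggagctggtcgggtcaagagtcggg
PSMD13 promoter, chr11:236726-237025, plus strand: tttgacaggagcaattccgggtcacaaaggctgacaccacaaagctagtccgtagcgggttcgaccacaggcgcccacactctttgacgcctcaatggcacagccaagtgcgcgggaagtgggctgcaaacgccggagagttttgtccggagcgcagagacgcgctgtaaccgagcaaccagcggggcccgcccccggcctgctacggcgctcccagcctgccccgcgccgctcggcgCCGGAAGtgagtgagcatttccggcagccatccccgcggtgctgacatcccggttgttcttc
PSMC1 promoter, chr14:90256303-90256602, plus strand: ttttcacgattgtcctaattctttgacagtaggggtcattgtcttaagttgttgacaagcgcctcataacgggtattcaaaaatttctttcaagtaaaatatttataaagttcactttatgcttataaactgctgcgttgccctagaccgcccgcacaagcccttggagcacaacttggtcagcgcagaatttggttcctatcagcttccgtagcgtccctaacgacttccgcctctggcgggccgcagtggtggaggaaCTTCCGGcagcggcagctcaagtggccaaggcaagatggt
PSMC4 promoter, chr19:39970915-39971214, plus strand: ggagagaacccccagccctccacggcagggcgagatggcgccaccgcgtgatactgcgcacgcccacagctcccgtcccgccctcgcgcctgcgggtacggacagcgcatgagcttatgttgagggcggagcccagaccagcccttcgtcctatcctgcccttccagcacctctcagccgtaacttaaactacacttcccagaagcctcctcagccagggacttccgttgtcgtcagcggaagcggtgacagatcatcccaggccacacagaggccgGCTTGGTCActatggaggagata
The PSMA1 window held none of the 3 motifs, and its RefSeq start lies inside the longer gene of GENCODE 29. The capitals are a CCAAT box at base -114 from the start in PSMC3, an ETS core at -12 in PSMD13 and at 11 on the opposite strand in PSMC1, and the response element core at 28 on the opposite strand in PSMC4. CCAAT occurred in 15 of the 30 member windows (50%) and in 34.6% of all 35116 windows. CCGGAAG occurred in 11 member windows (36.7%) and in 10.3% of all windows, and TGACNNNGC in 7 member windows (23.3%) and in 13.3% of all windows. Of the members that differed, PSMC3, PSMC5 and PSMD10 held CCAAT, PSMC1 and PSMD13 held CCGGAAG, and PSMC4 held TGACNNNGC. A match is a description of the letters and not a measured binding site.

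Between the banks, proteasome subunit transcripts differed little and in both directions. PSMC4 and PSMC5, ATPases of the base, were higher in DSMZ cells. PSMA1 of the alpha ring, the ATPases PSMC1 and PSMC3, the lid subunit PSMD13 and the assembly chaperone PSMD10 were lower. By the quasi-likelihood test of edgeR, with p-values adjusted over all tested genes (Benjamini-Hochberg), 7 of 31 members (22.6%) passed an adjusted p of 0.05, 2 higher and 5 lower, while 49.8% of all tested genes passed, 24.1% higher and 25.7% lower. Among the 6940 tested genes with a mean library-scaled count (CPM) in the members' range, 20.02 to 281.3 CPM, 48.6% passed. The median absolute log2 fold change was 0.16 over the members, 0.38 over those genes of similar level and 0.47 over all tested genes, and 27 of the 31 members lay below the last value. No member reached a 2-fold difference, which 12.3% of the genes of similar level and 21.8% of all tested genes did. The members' median signed log2 fold change was -0.05, against 0.01 for all tested genes.

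The number of members that passed depended on ATCC replicate 2. Without that library 20 of 31 members passed (64.5%), 9 higher and 11 lower in DSMZ cells, against 64.0% of all 14868 genes then tested, and all 7 members that passed with 6 libraries were among the 20. The median absolute log2 fold change without it was 0.20 over the members and 0.45 over all genes, and again no member reached 2-fold. The number of higher members also depended on scaling. With upper quartile normalization, which moved the median of all genes to -0.07, 0 members were higher and 5 lower. With library totals alone, which moved it to -0.04, 0 were higher and 6 lower. Of all tested genes, 48.8% and 49.5% passed under these scalings. Lower members outnumbered higher ones in each fit given so far, but over protein-coding transcripts alone 5 were higher and 5 lower. Over these transcripts 47.8% of all genes then tested passed. PSMA5 was among the 5 higher members, and its protein-coding transcripts held 1.09% of its TPM in DSMZ cells and 0.657% in ATCC cells. In RNA from bulk cultures, a lower level in every cell and a normal level in fewer cells cannot be told apart.

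**Figure D1:**
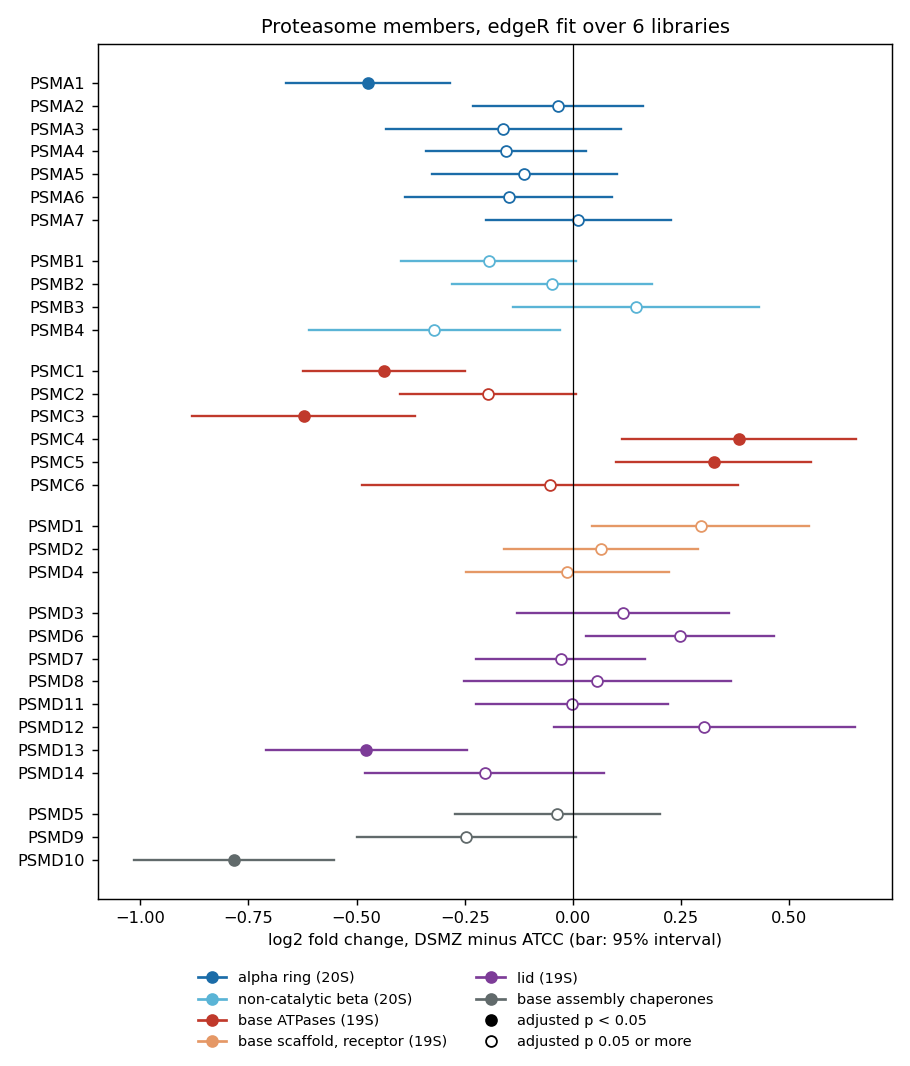
Log2 fold change (DSMZ minus ATCC, horizontal axis) with its 95% interval from the edgeR fit for each of the 31 tested members, one below the other and coloured by subcomplex. Filled points are the 7 members past an adjusted p of 0.05, of which PSMC4 and PSMC5 lie right of 0 and the other 5 lie left of it, and no point reaches -1 or 1.

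In the alpha ring, whose subunits form the gated ends of the core, 1 of 7 members passed the test, beside 49.8% of all tested genes. PSMA1 lies on the minus strand of chromosome 11 from 14504874 to 14643635 (GRCh38). It stood at 225.4, 218.5 and 205.9 TPM in the DSMZ libraries and at 323.6, 301.1 and 303.4 TPM in the ATCC libraries. All 3 DSMZ libraries lay well below the lowest ATCC library. Its log2 fold change was -0.47 (SE 0.08, edgeR adjusted p = 0.00221). The other 6 alpha subunits had log2 fold changes between -0.16 and 0.01, and none passed. PSMA4 averaged 290.9 ± 5.91 TPM in DSMZ cells and 332.1 ± 31.1 TPM in ATCC cells (SD, n = 3 each), the largest ATCC average of any member save PSMB4, and its libraries did not overlap, but its log2 fold change of -0.15 missed the threshold (edgeR adjusted p = 0.141). PSMA6, at 249.0 ± 4.75 TPM in DSMZ cells and 284.7 ± 21.2 TPM in ATCC cells, and PSMA5, at 116.6 ± 1.54 TPM in DSMZ cells and 129.2 ± 6.24 TPM in ATCC cells, likewise did not overlap and did not pass. PSMA7 was the most even of the ring, at 309.7 ± 12.4 TPM in DSMZ cells and 311.8 ± 15.0 TPM in ATCC cells. PSMA2 averaged 188.6 ± 6.14 TPM in DSMZ cells against 198.6 ± 15.0 TPM in ATCC cells. PSMA3 averaged 152.5 ± 3.07 TPM in DSMZ cells against 169.4 ± 26.6 TPM in ATCC cells, with ATCC replicate 2 lowest at 140.8 TPM. Without ATCC replicate 2, PSMA3 and PSMA4 also passed, with log2 fold changes of -0.25 and -0.17 and edgeR adjusted p of 0.0107 and 0.0164.

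The non-catalytic beta subunits complete the inner rings beside the catalytic ones. None of the 4 passed the test with all libraries, while 49.8% of all tested genes did. PSMB4 stood at 268.9, 277.4 and 261.6 TPM in the DSMZ libraries and at 302.6, 386.8 and 332.7 TPM in the ATCC libraries. The groups did not overlap, with ATCC replicate 2 the highest, and the log2 fold change of -0.32 (SE 0.12) had an edgeR adjusted p of 0.065. Without that library the value was -0.18 with an edgeR adjusted p of 0.0399. PSMB1 did not overlap either, at 280.1 ± 4.58 TPM in DSMZ cells and 328.0 ± 9.0 TPM in ATCC cells (log2 fold change -0.20, edgeR adjusted p = 0.0964). PSMB2 averaged 89.9 ± 1.18 TPM in DSMZ cells and 97.9 ± 7.85 TPM in ATCC cells. PSMB3 averaged 296.0 ± 20.4 TPM in DSMZ cells and 272.0 ± 28.2 TPM in ATCC cells. Its log2 fold change was 0.15 with all libraries and 0.28 without ATCC replicate 2, where it passed (edgeR adjusted p = 0.00625).

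The ATPases of the base were the subcomplex with the most members past the threshold, 4 of 6 (66.7%), 2 in each direction, beside 49.8% of all tested genes. Their libraries did not overlap in 5 of 6 (83.3%), beside 57.2% of all tested genes, and with so few members no difference from that share was tested. PSMC3, whose C-terminal tail docks into the alpha ring and helps to open the gate, lies on the minus strand of chromosome 11 from 47418769 to 47426473. It had 151.1, 161.3 and 143.1 TPM in the DSMZ libraries and 223.8, 259.5 and 246.7 TPM in the ATCC libraries. Its log2 fold change of -0.62 (SE 0.11, edgeR adjusted p = 0.00264) was the lowest among the subunits of the mature particle. PSMC1, another ATPase with a gate-opening tail, lies on the plus strand of chromosome 14 from 90256495 to 90275429. It had 167.7, 180.1 and 165.8 TPM in the DSMZ libraries and 247.0, 232.7 and 241.5 TPM in the ATCC libraries, with a wide gap between the groups and a log2 fold change of -0.44 (SE 0.08, edgeR adjusted p = 0.00312).

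PSMC4 and PSMC5 lay on the other side. PSMC4, the ATPase bound by the chaperone PSMD10 during assembly, lies on the plus strand of chromosome 19 from 39971005 to 39981441. It had 70.3, 72.5 and 68.2 TPM in the DSMZ libraries and 50.2, 61.1 and 55.1 TPM in the ATCC libraries, so the groups were separate but close. Its log2 fold change was 0.38 (SE 0.12, edgeR adjusted p = 0.0268). PSMC5, the ATPase bound by the chaperone PAAF1, lies on the plus strand of chromosome 17 from 63827152 to 63832026. It had 178.3, 175.6 and 167.0 TPM in the DSMZ libraries and 138.8, 150.0 and 141.9 TPM in the ATCC libraries, and a log2 fold change of 0.32 (SE 0.10, edgeR adjusted p = 0.0249). Both calls were fragile: leaving out any library other than ATCC replicate 2 ended them, with edgeR adjusted p of 0.106 and 0.112 without ATCC replicate 1, 0.134 and 0.124 without ATCC replicate 3, 0.120 and 0.124 without DSMZ replicate 1, 0.130 and 0.139 without DSMZ replicate 2, and 0.0743 and 0.0737 without DSMZ replicate 3, PSMC4 before PSMC5. Without ATCC replicate 2 their log2 fold changes were 0.50 and 0.39 (edgeR adjusted p = 0.000336 and 0.000798).

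The 2 remaining ATPases did not pass with all libraries. PSMC2 averaged 128.1 ± 3.47 TPM in DSMZ cells and 151.6 ± 9.23 TPM in ATCC cells without overlap (log2 fold change -0.20, edgeR adjusted p = 0.0977). PSMC6 had 119.3, 119.1 and 117.6 TPM in the DSMZ libraries and 150.1, 78.0 and 139.4 TPM in the ATCC libraries. ATCC replicates 1 and 3 lay above all DSMZ libraries and ATCC replicate 2 lay below them. The log2 fold change was -0.05 (edgeR adjusted p = 0.831) with all libraries and -0.24 (edgeR adjusted p = 0.00773) without ATCC replicate 2.

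**Figure D2:**
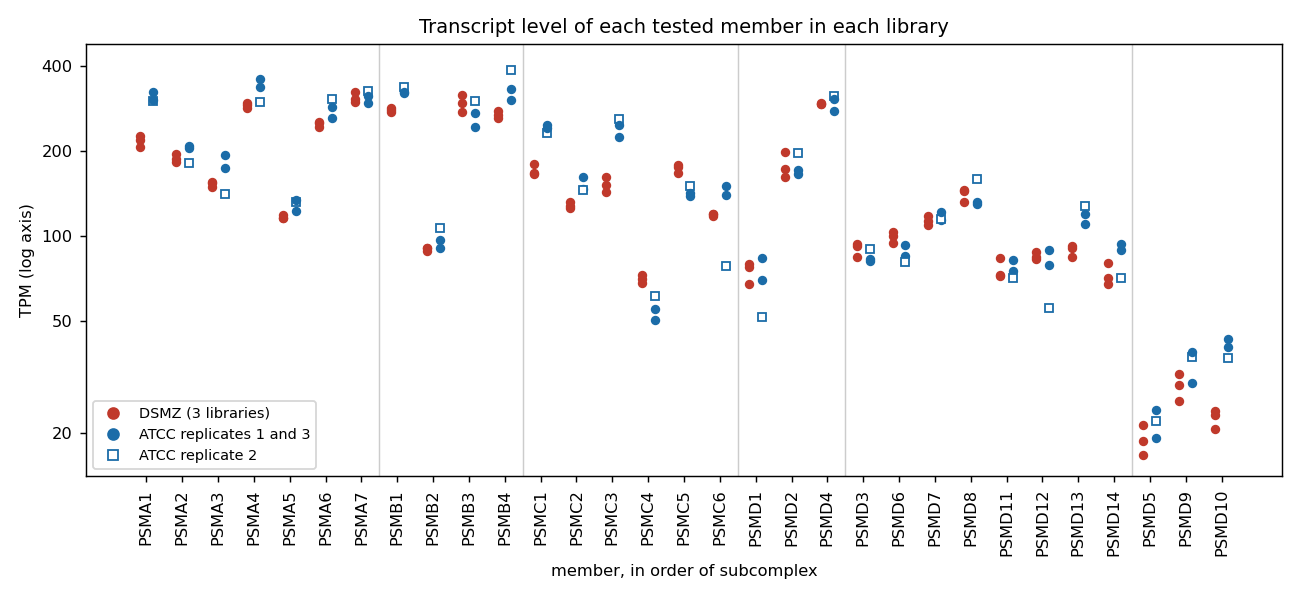
TPM (log axis) of each of the 31 tested members in each library, with DSMZ libraries left of ATCC libraries for each member and ATCC replicate 2 drawn as an open square. The groups do not overlap in 14 members (45.2%, beside 57.2% of all tested genes). DSMZ is lower in 11 of them, among these PSMA1, PSMC1, PSMC3, PSMD13 and PSMD10, and higher in 3, PSMC4, PSMC5 and PSMD6. ATCC replicate 2 lies below the other ATCC libraries in PSMC6 (78.0 TPM) and PSMD12 (55.3 TPM).

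The scaffold and receptor subunits of the base hold the lid, the ubiquitin receptors and incoming substrates. None of the 3 passed with all libraries, while 49.8% of all tested genes did. PSMD4, a ubiquitin receptor, averaged 294.3 ± 1.83 TPM in DSMZ cells and 298.8 ± 19.8 TPM in ATCC cells. PSMD2, a large scaffold subunit, averaged 177.7 ± 19.3 TPM in DSMZ cells and 177.5 ± 16.5 TPM in ATCC cells. PSMD1, the other large scaffold, had 77.3, 79.2 and 67.5 TPM in the DSMZ libraries and 83.6, 51.5 and 69.5 TPM in the ATCC libraries, which overlapped. Its log2 fold change on the count scale was 0.30 (SE 0.11) with an edgeR adjusted p of 0.0527. Without ATCC replicate 2 it was 0.21 and passed (edgeR adjusted p = 0.00902), as did PSMD2 at 0.16 (edgeR adjusted p = 0.0293).

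Of the 8 lid subunits, 1 passed with all libraries (12.5%), beside 49.8% of all tested genes. PSMD13, a PCI-domain subunit of the horseshoe-shaped lid, lies on the plus strand of chromosome 11 from 236546 to 252984. It had 92.1, 90.8 and 83.8 TPM in the DSMZ libraries and 110.2, 128.0 and 119.6 TPM in the ATCC libraries, with no overlap. Its log2 fold change was -0.48 (SE 0.10, edgeR adjusted p = 0.00563). PSMD14, the deubiquitinase of the lid, averaged 72.8 ± 6.26 TPM in DSMZ cells and 84.4 ± 12.1 TPM in ATCC cells, and its partner PSMD7 averaged 113.0 ± 4.17 TPM in DSMZ cells and 116.6 ± 4.01 TPM in ATCC cells. The log2 fold change of PSMD14 was -0.20 (edgeR adjusted p = 0.187) with all libraries and -0.30 (edgeR adjusted p = 0.00177) without ATCC replicate 2.

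The other 5 lid subunits carry PCI domains as well. PSMD6 averaged 99.0 ± 4.55 TPM in DSMZ cells and 86.3 ± 6.23 TPM in ATCC cells without overlap, with a log2 fold change of 0.25 (edgeR adjusted p = 0.0585). PSMD12 averaged 84.7 ± 2.54 TPM in DSMZ cells and 74.3 ± 17.2 TPM in ATCC cells, with a log2 fold change of 0.30 (edgeR adjusted p = 0.129). Its ATCC spread came from replicate 2, at 55.3 TPM, against 88.9 and 78.7 TPM in ATCC replicates 1 and 3. PSMD3 averaged 89.9 ± 4.90 TPM in DSMZ cells and 84.5 ± 4.68 TPM in ATCC cells (log2 fold change 0.12). PSMD8 averaged 140.6 ± 7.79 TPM in DSMZ cells and 140.4 ± 16.1 TPM in ATCC cells (0.06), and PSMD11 75.9 ± 6.39 TPM in DSMZ cells and 76.0 ± 5.52 TPM in ATCC cells (-0.0019). None of these passed. Without ATCC replicate 2, 4 lid subunits were higher in DSMZ cells by the same test, PSMD3, PSMD6, PSMD8 and PSMD12. Their log2 fold changes were 0.21, 0.24, 0.20 and 0.16. Another 2 lid subunits were lower there, PSMD13 (-0.39) and PSMD14 (-0.30). In that fit 4718 of all 14868 tested genes were higher and 4797 lower, and 64.0% passed in either direction.

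The 3 assembly chaperones hold ATPases during assembly of the base and are absent from the finished particle. PSMD10, also called gankyrin, an ankyrin-repeat protein that binds PSMC4 and is overexpressed in liver cancer, lies on the minus strand of chromosome X from 108084207 to 108091618. It had 20.7, 23.2 and 23.9 TPM in the DSMZ libraries and 40.2, 36.7 and 42.9 TPM in the ATCC libraries. This was the lowest log2 fold change of all members, -0.78 (SE 0.10, edgeR adjusted p = 0.000532), and it passed under all 21 alternatives. PSMC4, its client, was higher in DSMZ cells by 0.38 on the log2 scale. PSMD5, which binds PSMC1, averaged 18.9 ± 2.36 TPM in DSMZ cells and 21.8 ± 2.52 TPM in ATCC cells, and did not pass (log2 fold change -0.04). PSMD9, which binds PSMC3 and PSMC6, averaged 29.3 ± 3.32 TPM in DSMZ cells and 35.2 ± 4.56 TPM in ATCC cells and did not pass (log2 fold change -0.25, edgeR adjusted p = 0.0947).

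The 2 tissue-restricted core subunits gave no signal. PSMA8, the alpha subunit of the testis proteasome on chromosome 18, and PSMB11, the beta subunit of the thymus proteasome on chromosome 14, had 0 counts in the 3 DSMZ libraries and 0 counts in the 3 ATCC libraries. With the 3 libraries of a bank pooled, 0 counts leave room for up to 0.0338 CPM in DSMZ cells and 0.0368 CPM in ATCC cells (3 counts, counting error only).

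The 24 members that did not pass had log2 fold changes from -0.32 to 0.30, 8 positive and 16 negative. For 22 of them the 95% interval of the fold change lay within 1.5-fold in both directions, the exceptions being PSMB4 and PSMD12. In 14 members (45.2%) the TPM of the 6 libraries did not overlap between banks, 11 with DSMZ below ATCC and 3 with DSMZ above, while 57.2% of all tested genes did not overlap.

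TPM summed by subcomplex are given as a description with no test. The alpha ring summed to 1524 ± 28.5 TPM in DSMZ cells and 1735 ± 44.1 TPM in ATCC cells, a ratio of 0.878. The base ATPases summed to 813.8 ± 26.9 TPM in DSMZ cells and 956.9 ± 29.8 TPM in ATCC cells, a ratio of 0.850, and the non-catalytic beta subunits to 935.3 ± 23.2 TPM in DSMZ cells and 1039 ± 86.9 TPM in ATCC cells, a ratio of 0.900. In these 3 subcomplexes each DSMZ library lay below each ATCC library, although the ATPases PSMC4 and PSMC5 were singly higher in DSMZ cells. The scaffold and receptor subunits summed to 546.6 ± 24.2 TPM in DSMZ cells and 544.6 ± 15.8 TPM in ATCC cells, and the lid to 764.9 ± 30.0 TPM in DSMZ cells and 781.7 ± 13.6 TPM in ATCC cells, and in both the libraries overlapped. The assembly chaperones had the lowest sum and the lowest ratio, 0.730, with 70.7 ± 3.24 TPM in DSMZ cells and 97.0 ± 3.27 TPM in ATCC cells. Among them PSMD10 averaged 22.6 TPM in DSMZ cells and 39.9 TPM in ATCC cells, while PSMD5 and PSMD9 overlapped between banks. Over all members the sum was 4655 ± 106.6 TPM in DSMZ cells and 5154 ± 59.2 TPM in ATCC cells, a ratio of 0.903. For the chaperones and for all members, too, each DSMZ library lay below each ATCC library. Taken singly, 57.2% of all tested genes did not overlap between banks in TPM.

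Transcripts of the structural subunits of the core and the regulatory particle were not equally abundant. Among the 28 tested structural members, without the chaperones, the highest TPM was 4.37, 4.55 and 4.69 times the lowest in the DSMZ libraries and 7.18, 7.51 and 6.12 times the lowest in the ATCC libraries, so the range was narrower in every DSMZ library. The lowest member was PSMC4, PSMD14 or PSMD1 in the DSMZ libraries and PSMC4 or PSMD1 in the ATCC libraries. The highest was PSMA7 or PSMB3 in the DSMZ libraries and PSMA4 or PSMB4 in the ATCC libraries. The median member stood at 137.4 to 149.6 TPM in the DSMZ libraries and at 148.0 to 152.1 TPM in the ATCC libraries.

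By chromosome, 5 of the 7 members that differed lay on chromosomes whose median log2 fold change had their sign, and PSMC1 and PSMC4 did not. On chromosome 11 all 3 members, PSMA1, PSMC3 and PSMD13, were lower in DSMZ cells, and 46.1% of the 786 tested genes of that chromosome were lower, with a median log2 fold change of -0.36. The single member on chromosome X, PSMD10, at -0.78, stood beside a chromosome median of -0.82, where 68.9% of 492 tested genes were lower. Chromosome 17 held 5 members, of which PSMC5 was higher, and 47.1% of its 894 tested genes were higher. The members there had a median of 0.15, below the median of 0.38 for all tested genes of the chromosome, and PSMD11 stood at -0.0019 there. Chromosome 19 held PSMC4, which was higher at 0.38, and PSMD8, while its 1104 tested genes had a median of -0.03, 18.6% of them higher and 21.1% lower. Chromosome 14 held 4 members with a median of -0.155 while its 463 tested genes had a median of 0.0047, and chromosome 1 held 4 members with a median of -0.08, none past the threshold, beside a median of -0.12 for 1479 genes. PSMB1 on chromosome 6 (-0.20), PSMD9 on 12 (-0.25) and PSMA4 on 15 (-0.15) stood against chromosome medians of 0.20, 0.20 and 0.08. On chromosomes 2, 3, 7, 9, 16 and 20 the members' median had the sign of the chromosome median.

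A window of 5 Mb on each side of a member's start held 15 to 210 tested genes. PSMD13, at -0.48, stood beside a neighbourhood median of -0.51, PSMC5, at 0.32, beside 0.44, and PSMC4, at 0.38, beside 0.25. PSMA1, at -0.47, stood beside -0.24, PSMC3, at -0.62, beside -0.32, and PSMD10, at -0.78, beside -1.03. PSMC1, at -0.44, was the exception among the members that differed, since the 48 genes around it had a median of 0.02. Other members did not follow their surroundings: PSMD14 stood at -0.20 beside a median of 0.40, PSMD11 at -0.0019 beside 0.43, and PSMD5 at -0.04 beside -0.33. Of the 31 members, 22 had the sign of their neighbourhood median. Pearson's r between the members' log2 fold change and the neighbourhood median was 0.779, and 0.708 with the chromosome median (n = 31 genes that share the same 6 libraries and in part the same neighbours, given as a description). The median member lay 0.15 below its neighbourhood. What part the neighbourhood has in these differences was not tested.

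**Figure D3:**
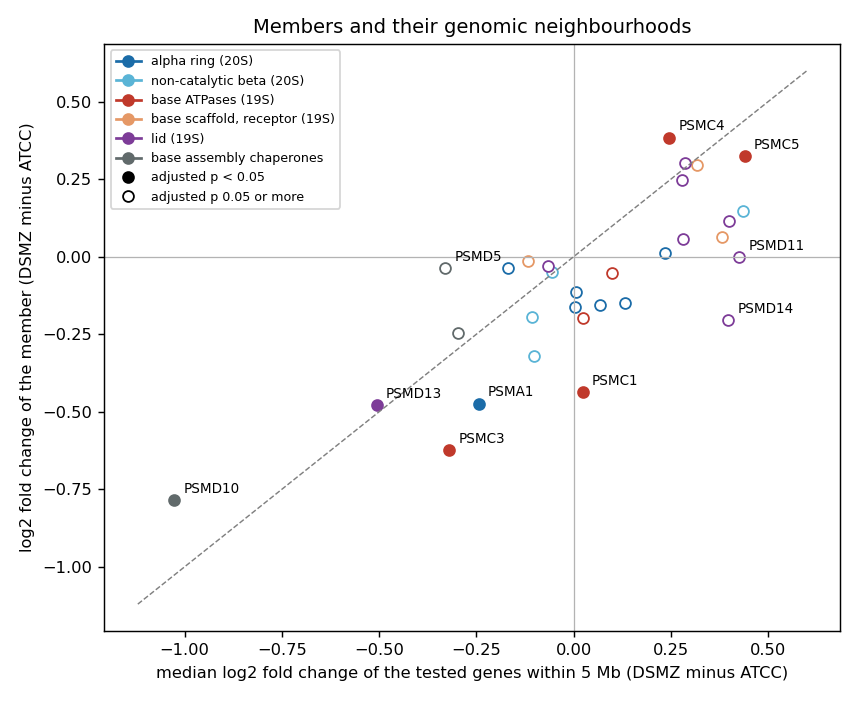
Log2 fold change of each of the 31 tested members (vertical axis) against the median log2 fold change of the tested genes within 5 Mb of its start (horizontal axis), both DSMZ minus ATCC, with the dashed line marking equal values. PSMD10 lies lowest on both axes (-0.78 and -1.03), PSMC4 and PSMC5 lie at the upper right, and PSMC1 lies below the line at a neighbourhood median of 0.02.

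The deviation of ATCC replicate 2 followed GC content among the members. Its log2 CPM minus the mean of ATCC replicates 1 and 3 was -0.70 for PSMC6 (39.4% GC), -0.53 for PSMD12 (39.6%), -0.35 for PSMD14 (36.9%), -0.31 for PSMA3 (40.0%) and -0.30 for PSMD1 (43.5%). At the other end it was 0.39 for PSMD8 (56.7% GC) and 0.37 for PSMB4 (49.1%). Pearson's r over the 31 members was 0.764 (genes of the same 3 libraries, given as a description). Among the members that differed, PSMD10 (-0.02), PSMC1 (0.04) and PSMA1 (0.09) hardly deviated in that library, while PSMC4 and PSMC3 deviated by 0.29 and 0.28. With a correction for GC content 13 members passed, 5 higher and 8 lower, and 63.1% of all tested genes passed.

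**Figure D4:**
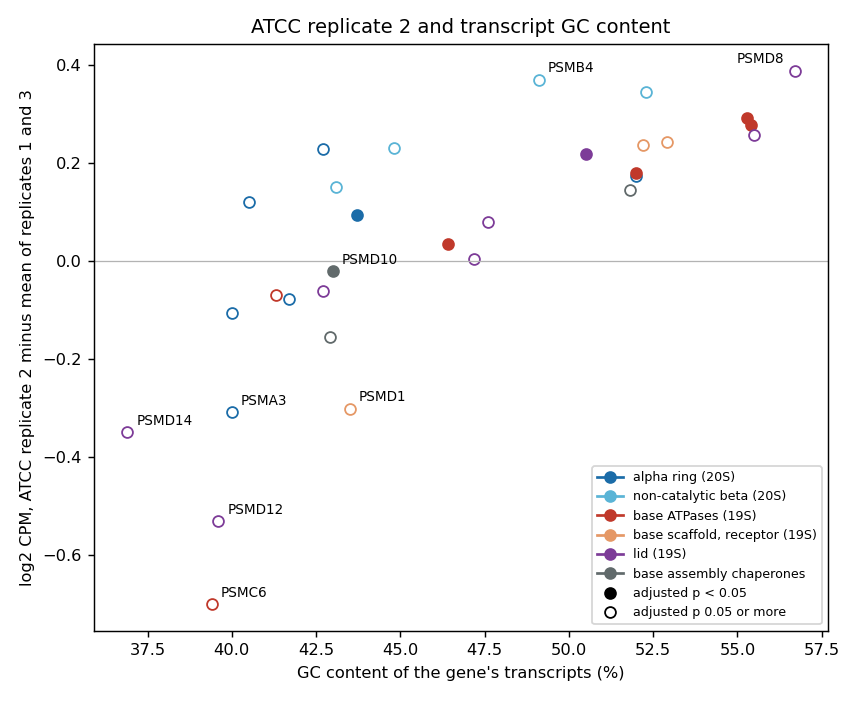
Deviation of ATCC replicate 2 from the mean of ATCC replicates 1 and 3 (log2 CPM, vertical axis) against the GC content of the gene's transcripts (percent, horizontal axis) for the 31 tested members, filled where the member differed between banks. The members below 40.0% GC, PSMC6, PSMD12 and PSMD14, lie between -0.70 and -0.35, and PSMD8, at 56.7% GC, lies at 0.39.

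The transcripts behind the gene totals differed among members, and their shares are given as a description. In PSMA5 nearly all of the TPM, 98.5 ± 0.0915% in DSMZ cells and 99.0 ± 0.159% in ATCC cells, was assigned to ENST00000490870.5, annotated as a processed transcript without a coding sequence. Its protein-coding transcripts held 1.09% in DSMZ cells and 0.657% in ATCC cells, and counted alone they gave a log2 fold change of 0.62 in place of -0.11, so its direction rests on the assignment of reads between its transcripts. In PSMB3 and PSMC4 50% of the TPM was assigned to copies of the gene on alternative sequences of the assembly, which were summed with the primary copy. Over the primary copy alone PSMC4 missed the threshold, with a log2 fold change of 0.37 and an edgeR adjusted p of 0.0501. Protein-coding transcripts held 51.3 ± 3.08% of PSMD13 in DSMZ cells and 60.4 ± 3.49% in ATCC cells, and 96.6 ± 0.95% of PSMC5 in DSMZ cells and 92.4 ± 0.825% in ATCC cells. For PSMD12 the shares were 45.8 ± 1.70% in DSMZ cells and 40.2 ± 1.66% in ATCC cells. In PSMD11, with a log2 fold change of -0.0019 over all its transcripts, the short coding transcript ENST00000580904.1 held 6.94 ± 1.68% of the TPM in DSMZ cells and 1.63 ± 0.562% in ATCC cells. PSMC1 drew on a coding transcript of 1389 bases, ENST00000543772.2, for 50 ± 0.581% of its TPM in DSMZ cells and 48.3 ± 1.17% in ATCC cells. The 30 PSM pseudogenes in the files held at most 34 estimated counts in any library.

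Genes that make, activate or regulate the proteasome were read from the same test, in which 49.8% of all tested genes passed, 24.1% higher and 25.7% lower in DSMZ cells. Between 20.0% of the other subunits and bound factors and 50% of the catalytic beta subunits and of the shuttle receptors passed in these lists. Of the 6 catalytic beta subunits 3 were lower in DSMZ cells and none was higher. PSMB10, an immunoproteasome subunit, averaged 71.2 ± 6.22 TPM in DSMZ cells and 109.1 ± 13.4 TPM in ATCC cells (log2 fold change -0.65, edgeR adjusted p = 0.00531). PSMB8, another immunoproteasome subunit, stood at -0.43 and PSMB7, a constitutive one, at -0.42. Both calls were lost when any DSMZ library was left out, with edgeR adjusted p up to 0.0796 and 0.106, and that of PSMB7 also without ATCC replicate 3. Of 5 activators and inhibitors 2 were higher and none lower: PSMF1, an inhibitor of the core, at 99.4 ± 4.54 TPM in DSMZ cells and 48.1 ± 6.6 TPM in ATCC cells (log2 fold change 0.93, edgeR adjusted p = 0.000223), and PSME1, a subunit of the interferon-inducible activator, at 268.3 ± 9.32 TPM in DSMZ cells and 185.7 ± 22.3 TPM in ATCC cells (0.58, edgeR adjusted p = 0.00393). The tested genes within 5 Mb had a median log2 fold change of -0.13 around PSMB10, 0.34 around PSMB8 and -0.45 around PSMB7. Around PSMF1 and PSME1 the median was 0.90 and -0.09.

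Among 6 assembly factors PAAF1, the chaperone of PSMC5, was lower at -0.75 (edgeR adjusted p = 0.00132), and POMP, which matures the core, was higher at 0.34 (edgeR adjusted p = 0.0133) but stood at -0.10 with the GC correction and lost its call without ATCC replicate 3 or any DSMZ replicate (edgeR adjusted p up to 0.0866). Of 7 genes of transcriptional control 2 were higher and none lower, NFE2L2 (0.72) and NFE2L1 (0.50), the factors that act through the response element. NFE2L2 lost its call without ATCC replicate 3 or any DSMZ replicate (edgeR adjusted p up to 0.106), and NFE2L1 without ATCC replicate 3 or DSMZ replicate 2 (up to 0.0648). Of 10 other subunits and bound factors 2 were lower, the deubiquitinase UCHL5 (-0.77) and the thioredoxin-like TXNL1 (-0.67), and UCHL5 lost its call without DSMZ replicate 3 (edgeR adjusted p = 0.0625). Of 6 shuttle receptors, which bring ubiquitinated proteins to the particle, UBQLN2 (-0.96) and RAD23B (-0.39) were lower and UBQLN4 (0.42) was higher, the last without a call when ATCC replicate 1 or 3 or DSMZ replicate 1 or 2 was left out (edgeR adjusted p up to 0.0934). Of 6 genes of the VCP unfoldase and its cofactors NSFL1C (0.88) was higher and VCP (-0.35) lower, VCP without a call when ATCC replicate 3 or any DSMZ replicate was left out (edgeR adjusted p up to 0.102). Among ubiquitin and E1 genes UBA1 (-1.16), the main ubiquitin-activating enzyme, was lower and UBB (0.33), a polyubiquitin gene, was higher. UBB is made of near-identical repeats, so the assignment of its reads is uncertain, and it lost its call when any library other than ATCC replicate 2 was left out (edgeR adjusted p up to 0.221). The median log2 fold change within 5 Mb was -0.41 around PAAF1, 0.67 around POMP, 0.52 around NFE2L2 and 0.29 around NFE2L1. Around UCHL5, TXNL1, UBQLN2, RAD23B and UBQLN4 the median was -0.26, 0.07, -0.86, -0.27 and -0.07. Around NSFL1C, VCP, UBA1 and UBB it was 0.91, -0.39, -0.81 and 0.44. What part these surroundings have was not tested.

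The lid shares its PCI and MPN domain architecture with the COP9 signalosome, which removes NEDD8 from cullins, and with the translation initiation factor eIF3. In the lid 1 of 8 members passed, lower in DSMZ cells, and the median absolute log2 fold change was 0.16. In the COP9 signalosome 4 of 9 subunits were higher and 2 lower (66.7% past the threshold, beside 49.8% of all tested genes), with a median absolute log2 fold change of 0.49, led by COPS5 (-0.98), COPS3 (0.81) and COPS7B (0.58). In eIF3 1 of 13 was higher and 3 were lower (30.8% past the threshold), with a median absolute log2 fold change of 0.19, and the range ran from EIF3H (-0.74) and EIF3M (-0.52) to EIF3A (1.40). The tested genes within 5 Mb had a median of -0.54 around COPS5, 0.42 around COPS3 and 0.31 around COPS7B. Around EIF3H, EIF3M and EIF3A the median was -0.88, -0.23 and 1.03. What part these surroundings have was not tested, nor was the difference between the complexes. Of all tested genes, 30.1% had a larger absolute log2 fold change than PSMD10, the member with the largest.

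**Figure D5:**
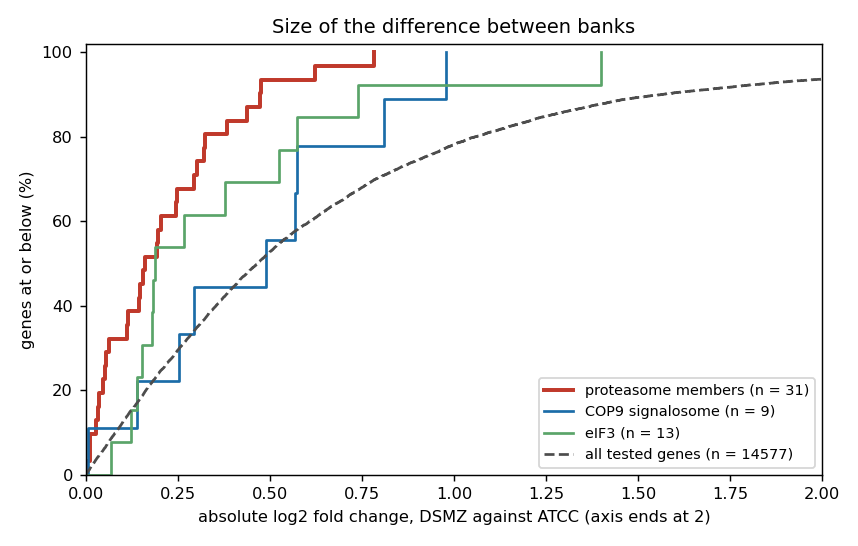
Share of genes (percent, vertical axis) at or below a given absolute log2 fold change between DSMZ and ATCC (horizontal axis, which ends at 2) for the 31 tested proteasome members, 9 COP9 signalosome subunits, 13 eIF3 subunits and all 14577 tested genes. The curve of the members ends at 0.78 and lies above that of all tested genes, whose median is 0.47.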

How the data were processed

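RNA of 6 THP-1 cultures (3 DSMZ, 3 ATCC) was prepared as stranded polyadenylated libraries, per the labels' protocols. The submitters' processing notes name the build GRCh38, kallisto 0.43.0, Trimmomatic 0.35 and bcl2fastq 2.20. Not given in the sources used here is the annotation release behind the kallisto index. In the deposited files stand, per transcript, the length, the effective length, the estimated count (not normalized) and the TPM in kallisto's format, per the file headers.

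Of 179973 transcripts, 163714 were matched to GENCODE 29 genes on the primary assembly and 14229 by symbol (2.42 to 2.85% of counts, mostly copies on alternative sequences), while 2030 had no gene (0.181 to 0.199% of counts) and were left out. Estimated counts were summed per gene and rounded to whole numbers. The bank was the only term of the quasi-likelihood fit in edgeR 4.0.16 (R 4.3.3), after filterByExpr and TMM scaling, and Benjamini-Hochberg adjusted p-values under 0.05 were taken as past the threshold. The biological coefficient of variation was 15.9%. Intervals have 95% confidence. Floors of 3 counts cover counting error only. The test was also run on simulated counts with known changes. It recovered 12 of 67 genes set at 1.5-fold, 42 of 64 at 2-fold and 65 of 66 at 4-fold. There were 8 false calls among the 14196 genes run. No pair of libraries of a bank was close enough to be 1 library deposited again (smallest chi-square per degree of freedom 4.61).

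Every member is accounted for. Values per library are given for those past the threshold, and for other lists up to 3 genes past the threshold by absolute fold change are named, except that 1 item of these lists is not reported here. Per-library values of other members were added after their values were seen. The members and lists were chosen with earlier results of these data known. Alternatives were upper quartile, median-of-ratios and library-total scaling, DESeq2 1.42.0, limma 3.58.1 on log2(TPM + 0.5) and log2(TPM + 0.1), other filters, primary assembly or protein-coding transcripts only, a transcript length offset, a GC correction (GC content known for 99.9% of tested genes), a replicate block, thinning, and leaving out each library. Motifs were searched with Python 3.11.15, and figures were drawn with matplotlib 3.10.9.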

Additional observations from a re-analysis of the deposited data

How the results depend on the processing

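The 7 members past the threshold were tried under 21 alternatives. In the 147 combinations none changed direction, and 19 lost the call, all of them in PSMC4 (10) or PSMC5 (9). Members past the threshold numbered 13 with the GC correction and 12 with the replicate block and GC correction together. They numbered 5 to 20 when 1 library was left out, 20 being without ATCC replicate 2. Of all tested genes, 63.1%, 62.9% and 37.1 to 64.0% passed in the same fits, against 49.8% in the main fit. Members higher in DSMZ numbered 0 with upper quartile scaling, library totals, no filter or the length offset, 1 with primary assembly transcripts, 5 with protein-coding transcripts or the GC correction, 4 with block and GC correction, and 0 to 9 without 1 library. Members lower in DSMZ numbered 5 with protein-coding transcripts. They numbered 8 with limma at either pseudocount, the GC correction, or block and GC correction, and 5 to 11 without 1 library. Of all genes then tested, 48.8% passed with upper quartile scaling, 49.5% with library totals, 32.4% with no filter and 44.0% with the length offset. The share was 49.1% with primary assembly transcripts and 47.8% with protein-coding transcripts. With limma it was 44.1% at a pseudocount of 0.5 and 44.0% at 0.1. The members' median log2 fold change was -0.12 with upper quartile scaling or limma at either pseudocount, -0.11 with the length offset, -0.14 with the GC correction or block and GC correction, and -0.104 to -0.053 without 1 library. The cause of these shifts was not tested.

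The replicate block left 2 members higher and 5 lower, as without it, and changed no member's call, while 48.1% of all tested genes passed. Deviations of libraries with the same number correlated at 0.013, 0.080 and 0.162, and those of libraries with different numbers at -0.103 to 0.026. The labels state no pairing, and the numbers were not taken as pairing in the main fit. The summed TPM of all members was 3501 in DSMZ cells and 3862 in ATCC cells over protein-coding transcripts, and 4472 in DSMZ cells and 4990 in ATCC cells over primary assembly transcripts.

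Log2 fold changes near 0 of members that did not pass with all libraries, and that of POMP, which did, changed sign under some alternatives. With upper quartile scaling PSMA7 stood at -0.072, PSMD2 at -0.020 and PSMD8 at -0.032. With library totals PSMA7 stood at -0.036. With limma at either pseudocount PSMA7 stood at -0.0091, PSMD2 at -0.00042 and PSMC6 at 0.011. PSMA7 stood at -0.00053 with the filter of 1 CPM and at -0.0035 over primary assembly transcripts. Over protein-coding transcripts PSMA7 stood at -0.0037, PSMD11 at 0.0012 and PSMA5, which passed the threshold there, at 0.62. PSMD11 stood at 0.018 with the length offset and 0.015 after thinning. With the GC correction PSMD4 stood at 0.088, PSMD7 at 0.076, PSMD11 at 0.11 and POMP at -0.10. With the replicate block and GC correction PSMD4 stood at 0.090, PSMD7 at 0.078, PSMD11 at 0.11, PSMB2 at 0.016 and POMP at -0.017. Without 1 library the values ran from -0.079 to 0.081 in PSMA7, from -0.14 to 0.041 in PSMB2, from -0.24 to 0.076 in PSMC6, from -0.023 to 0.16 in PSMD2, from -0.10 to 0.079 in PSMD4, from -0.087 to 0.20 in PSMD8 and from -0.085 to 0.033 in PSMD11.

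Each tested member had at least 436 estimated counts in every library. Precision is limited by 3 libraries a bank.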
